A study of Mus musculus with 62 samples.

Results

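The cerebellum was compared between mice carrying a melanoma that causes cachexia (CAC) and mice carrying a melanoma that does not (NCAC), 8 wk after the tumour cells were injected. The 12 libraries whose labels name these 2 groups at 8 wk were taken, 7 CAC and 5 NCAC, of 62 in the series; the rest are the earlier weeks (2, 4 and 6 wk) and mock-injected mice, of which the 5 of 8 wk are given beside some values. All mice are labelled female and 2 months old at injection, and both compared groups carry injected melanoma cells, so that the comparison sets 2 tumour-bearing groups side by side. The strain label of the samples (C57BL6/J) and the strain in the series text (NCI Ath/nude, an athymic line that lacks mature T cells) differ, and which of them holds cannot be told from the labels. The labels name neither the melanoma lines, the tumour burden nor the weight lost by any mouse, and they call the libraries biological replicates without naming an animal. The p-values therefore rest on the spread between libraries, pooled within all groups of the series and not only the 2 compared.

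Cachexia is the loss of muscle and fat that accompanies many tumours and chronic diseases, and it is driven in part by circulating inflammatory factors and by glucocorticoid hormones from the adrenal gland. Cytokines of the interleukin-6 family act through receptors that share gp130 and through the transcription factor STAT3, which switches on acute-phase genes. Glucocorticoids act through a nuclear receptor that binds DNA at pairs of short inverted sites and raises a set of well-known target genes in most tissues, the brain included. The cerebellum is made up mainly of granule neurons and Purkinje cells, with Bergmann glia and other astrocytes, oligodendrocytes that wrap axons in myelin, microglia and vessels.

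The values are TPM, the share of a library's transcripts that a gene accounts for, which correct for transcript length, so that levels can be set side by side between genes as well as between libraries. They carry no read counts, and the depth behind them is unknown. Between 18831 and 19472 symbols were above 0 in the CAC libraries and between 19072 and 19304 in the NCAC libraries. Markers of the cerebellum were present throughout: all 22 Purkinje genes and all 19 granule neuron genes looked for passed the expression minimum (a mean of at least 1 TPM over the 62 libraries), and the Purkinje genes summed to between 9463 and 10890 TPM in CAC and between 10020 and 10490 in NCAC. Transcripts encoded by mitochondrial DNA held 19 ± 1.31% of the TPM in CAC (SD, n = 7) and 20.8 ± 0.117% in NCAC (SD, n = 5).

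A pair of libraries stood apart from their own groups. CAC replicate 3 lay farthest from the CAC mean (a root mean square distance of 0.275 in log2 units, the other 6 lying at 0.21 to 0.253). Its glucocorticoid-responsive genes had a mean log2(TPM + 1) of 5.039, below the 5.622 to 6.282 of its group and within the 4.397 to 5.08 of NCAC. Its acute-phase genes averaged 3.6, close to the other CAC libraries (3.622 to 3.81) and above NCAC (2.769 to 3.028). Its red blood cell genes averaged 9.519, above the 3.388 to 6.759 of the remaining 6. NCAC replicate 3 lay farthest from the NCAC mean (0.244, against 0.186 to 0.231) and had the highest glucocorticoid-responsive mean of the NCAC group. Counts are therefore given with every library and with both replicate 3 libraries left out, a setting chosen after seeing the data. Since these libraries lay farthest from their groups, larger counts in that setting add no support.

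Differences were tested with limma on log2(TPM + 1) over 14399 genes, and a gene was called when its Benjamini-Hochberg adjusted p was under 0.05. At 8 wk 1695 genes were called, 11.8% of those tested. Of these, 1117 were higher in CAC (7.76% of genes tested) and 578 were lower (4.01%). Most of the differences were small: the median size among called genes was 0.25 on the log2 scale, and 167 called genes (1.16%) differed by at least 1.5-fold, 134 upward (0.931%) and 33 downward (0.229%). For 374 genes (2.6%) the libraries of the groups did not overlap, with CAC above in 280 (1.94%) and below in 94 (0.653%). The balance between higher and lower calls moved with the scaling: 65.9% of called genes were higher in TPM, 47.9% after median-of-ratios scaling, 45.7% after quantile normalization and 41.2% with the mitochondrially encoded genes removed before rescaling. With both replicate 3 libraries left out 2580 genes were called, of which 1609 were among the 1695. The spread was pooled over all groups of the series, and with the 2 compared groups fitted alone 685 genes were called.

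The 5 mock libraries of 8 wk give a reference point for the direction of these differences. Against them limma called 2990 genes (20.8%) in CAC and 0 in NCAC, where 1038 genes had an unadjusted p under 0.05. These comparisons share their CAC or NCAC libraries with the one above, and their values are given side by side with it. Some genes named below were called against NCAC but not against mock. Among them were Fat2 (-0.11 between CAC and mock, adjusted p = 0.402), Dusp6 (0.13, 0.48), Junb (0.45, 0.129), Neurod6 (0.03, 0.857) and Th (0.09, 0.787). Others, such as Lrg1 (2.52, 8.86e-11), were called against both. NCAC differed from mock, without being called, by 0.46 for Ntf3 and -0.39 for Igfbp4.

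**Figure D1:**
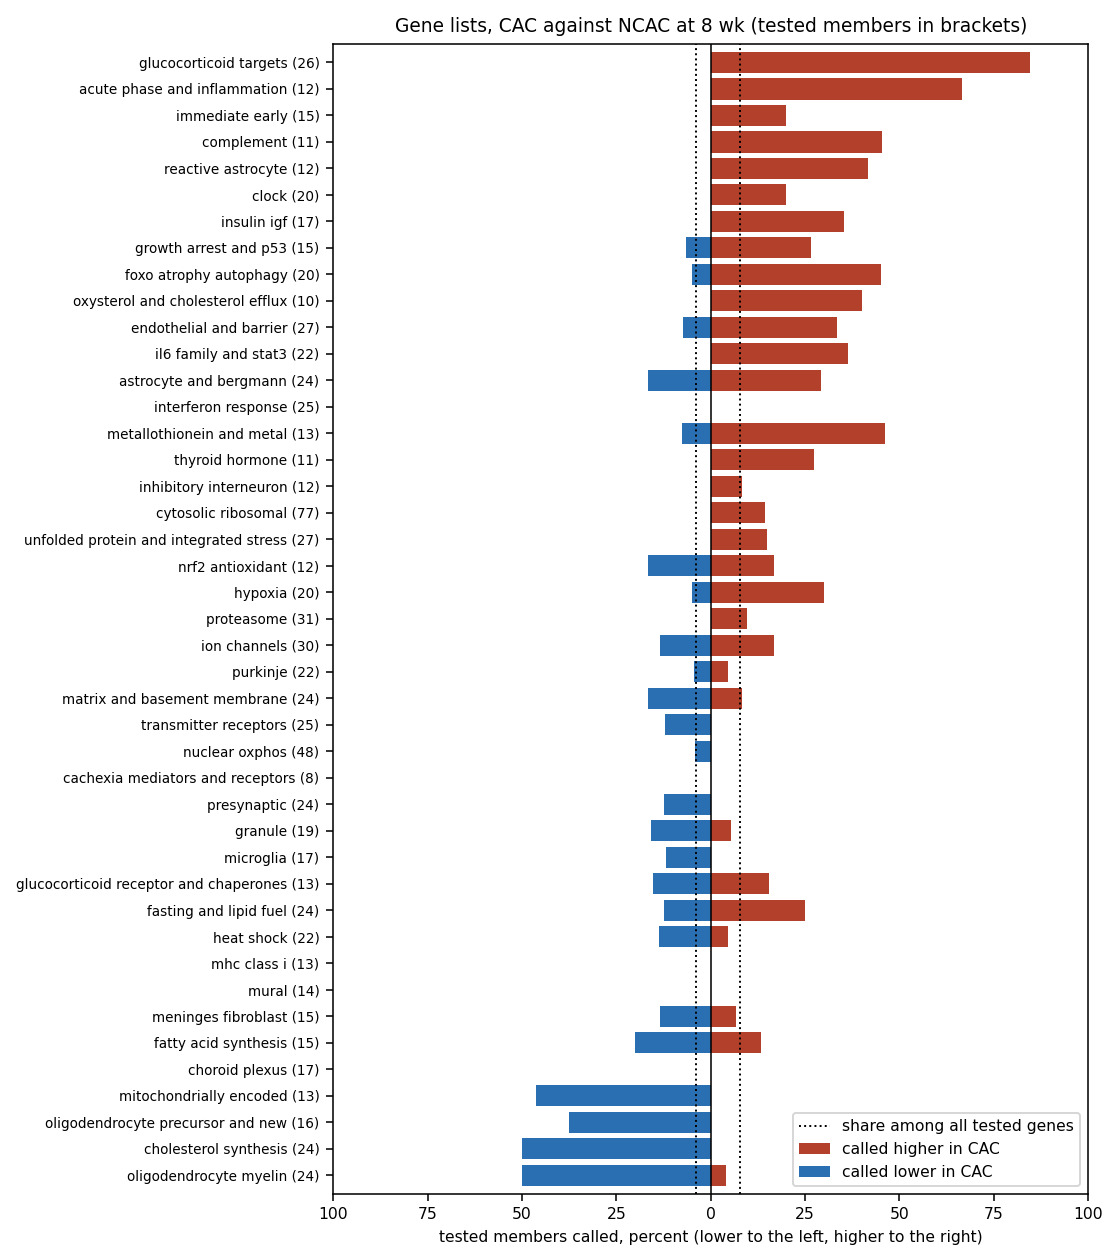
For each gene list with at least 8 tested members, the percentage of tested members called higher in CAC (red, to the right) or lower in CAC (blue, to the left) at 8 wk, with the number tested in brackets; dotted lines mark the share among all genes tested, 7.76% higher and 4.01% lower. Glucocorticoid-responsive and acute-phase genes lead upward (22 of 26 and 8 of 12, with Lcn2 in both lists), and cholesterol synthesis and myelin genes lead downward (12 of 24 each).

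Acute-phase and inflammatory genes were higher in CAC. Of 31 such genes 12 passed the expression minimum, 8 of these rose and none fell, with a median difference of 0.64 beside 0.02 over all genes tested. Lrg1 (chr17:56119678-56122001, minus strand, mm10 with GENCODE M21), which codes for a leucine-rich glycoprotein of the acute phase, had the smallest p of any gene. Its level in CAC was 6.57 to 22.9 TPM with a median of 17.3, and in NCAC it was 1.85, 2.84, 2.63, 2.7 and 1.87 TPM. Every CAC library was above every NCAC library, and CAC replicate 3 was the lowest of its group. The difference was 2.34 ± 0.235 on the log2 scale (SE, adjusted p = 1.34e-09), and the mock libraries averaged 1.98 ± 0.473 TPM.

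Lcn2, the iron-siderophore binding protein lipocalin 2 that is secreted by reactive astrocytes and neutrophils, was at 1.09, 0.784, 0.641, 0.535 and 0.207 TPM in NCAC and at 1.85 to 12.9 TPM with a median of 5.51 in CAC. The groups did not overlap, and here CAC replicate 3 was the highest library. The difference was 1.85 ± 0.224, adjusted p = 9.86e-08. Lcn2 is also counted in the glucocorticoid-responsive and reactive astrocyte lists below. Ch25h, the enzyme that makes a signalling oxysterol from cholesterol and that is induced in inflammation, was at 2.67 to 6.78 TPM with a median of 4.68 in CAC and at 0.89, 0.484, 0.761, 0.762 and 0.803 in NCAC (1.68 ± 0.209, adjusted p = 1.94e-07). All 7 CAC libraries again lay above all NCAC libraries. Serpina3h, of the serine protease inhibitor family, is annotated in GENCODE M21 as a transcribed pseudogene. It was at 3.54 to 11.4 TPM with a median of 3.83 in CAC and at 0.387, 0.717, 0.521, 0.913 and 0.378 in NCAC, again with no overlap (1.87 ± 0.236, adjusted p = 2.41e-07). Its relative Serpina3n rose by 1.12, and since the Serpina3 genes are a family of close copies, reads may have been split between them. The interleukin-1 receptor Il1r1 (0.67), the adhesion molecule Icam1 (0.64), the ferroxidase ceruloplasmin (Cp, 0.63) and Itih3 (0.47) were the other members that rose. Neutrophil genes were low: 3 of 11 passed the minimum and none was called, the smallest adjusted p being that of Mmp9 (0.12). The neutrophil list summed to between 5.28 and 17.1 TPM in CAC and between 5.29 and 9.71 in NCAC, and its part in the Lcn2 difference was not tested.

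Signalling genes of the interleukin-6 family that were called were all higher in CAC. Of 22 tested members 8 rose, none fell, and the median difference was 0.09. Among receptors, the oncostatin M receptor Osmr was at 2 to 2.96 TPM with a median of 2.37 in CAC and at 0.931, 0.756, 0.894, 0.996 and 0.918 in NCAC (0.84 ± 0.109, adjusted p = 5.34e-07). Il6ra, which binds interleukin-6 itself, averaged 2.66 ± 0.317 TPM in CAC and 1.57 ± 0.191 in NCAC (SD, n = 7 and 5; 0.51 ± 0.0917, adjusted p = 0.000175). CAC lay above NCAC in every library for both receptors. The ciliary neurotrophic factor receptor Cntfr (0.28) and the leukaemia inhibitory factor receptor Lifr (0.24) also rose, while the shared subunit Il6st, which encodes gp130, differed by -0.01 (adjusted p = 0.948). Downstream, Stat3 rose by 0.22, the kinase Pim3 by 0.28, and Socs3, the feedback inhibitor that STAT3 induces, by 0.77 ± 0.119 (adjusted p = 1.38e-05). Socs3 was at 2.87 to 4.72 TPM with a median of 3.51 in CAC and at 1.57, 2.1, 1.49, 1.46 and 1.84 in NCAC, and the groups did not overlap. Junb was called (0.70 ± 0.214, adjusted p = 0.0246), but without 1 of CAC replicates 1, 2 or 7 or NCAC replicates 2 or 4 its adjusted p was between 0.0503 and 0.109.

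A promoter window of Socs3 is shown because it holds the STAT motif TTCNNNGAA (letters equal on both strands, capitals below). Windows were the 250 bases before a start site in RefSeq (GRCm38.p6), with up to 40 bases printed on each side of the match, 5′ to 3′ on the gene's strand. By GENCODE M21 the stretch lies inside the Socs3 gene (chr11:117966079-117970047, minus strand), overlapping no exon, so that the RefSeq start of this window is downstream of the GENCODE start.
Socs3, chr11:117969472-117969560, minus strand: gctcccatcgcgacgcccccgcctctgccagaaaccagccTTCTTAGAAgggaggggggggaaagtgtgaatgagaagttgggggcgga
Counts are of genes with a match in any of their windows. The motif was in 6 of 26 acute-phase genes (23.1%), tested or not, and in 1 of 23 genes of the interleukin-6 list (4.35%). It was in 2197 of all 27025 genes with a window (8.13%) and in 72 of 851 genes called higher (8.46%). The 6 acute-phase genes were Fga, Fgb, Itih4, Icam1, Sele and Steap4, of which only Icam1 is named above as higher in CAC. A match says only that these letters are present.

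Of the 51 gene lists, that of glucocorticoid-responsive genes had the largest median difference. All 26 were tested, 22 rose, none fell, all 26 differences were above 0, and their median was 0.99. For 6 of the 26 the libraries of the groups did not overlap. With both replicate 3 libraries left out 24 rose, 22 did not overlap, and the median was 1.26, beside 1592 genes that rose and 1141 with CAC above of 14402 tested in that setting. Since these libraries also held the outlying values of this list, the larger counts follow from leaving them out and add no support. Fkbp5 (chr17:28399094-28517527, minus strand), the co-chaperone that restrains the glucocorticoid receptor and is itself a direct target, was at 7.14 to 42 TPM with a median of 28 in CAC. In NCAC it was at 4.46, 5.8, 8.76, 4.85 and 4.12 TPM, and the mock libraries averaged 5.56 ± 1.38. The difference was 2.04 ± 0.338, adjusted p = 5.45e-05. The only overlap came from CAC replicate 3, at 7.14, and NCAC replicate 3, at 8.76; the other 6 CAC libraries were all above every NCAC library.

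CAC replicate 3 alone set the overlap for Plin4 (chr17:56100591-56109803, minus strand), which coats lipid droplets and lies near Lrg1 on chromosome 17. Plin4 was at 1.7 to 42.2 TPM with a median of 26.4 in CAC and at 2.37, 1.97, 8.84, 3.53 and 1.81 in NCAC, a difference of 2.30 ± 0.542 (adjusted p = 0.0031) that was 3.09 without both replicate 3 libraries. Map3k6 (chr4:133240818-133252929), a stress-activated kinase, was at 1.82 to 19.2 TPM with a median of 10.1 in CAC and at 1.45, 1.05, 2.82, 1.54 and 0.903 in NCAC (2.02 ± 0.362, adjusted p = 0.000175). CAC replicate 3 held the lowest CAC value of both genes, below every NCAC library for Plin4 and within the NCAC range for Map3k6, and the other 6 CAC libraries were above all of NCAC. Zbtb16, a zinc finger transcription factor, averaged 32.8 ± 13.1 TPM in CAC and 6.79 ± 2.22 in NCAC (2.01 ± 0.51, adjusted p = 0.00607), and Sult1a1, a sulfotransferase of phenols and catecholamines, averaged 50.4 ± 24.8 and 12 ± 8.02 (1.95 ± 0.36, adjusted p = 0.000256). Cebpd, a transcription factor of acute-phase and fat cell genes, was at 9.7 to 16.5 TPM with a median of 11.9 in CAC and at 4.15, 1.19, 3.64, 3.88 and 5.9 in NCAC, with no overlap (1.58 ± 0.332, adjusted p = 0.000946).

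Mt1, a zinc-binding metallothionein, was among the most abundant of these genes, at 997 to 2728 TPM with a median of 2062 in CAC and at 789.8, 763, 1458, 884 and 640.4 in NCAC (1.18 ± 0.203, adjusted p = 9.72e-05). CAC replicate 3 (997) lay below NCAC replicate 3 (1458), and the other CAC libraries lay above all of NCAC. Cdkn1a (chr17:29090976-29100727), the cyclin-dependent kinase inhibitor p21, was at 20.4 to 104 TPM with a median of 60 in CAC and at 22.3, 17.6, 30.4, 19.6 and 18.3 in NCAC (1.41 ± 0.258, adjusted p = 0.000221). Pdk4, which turns the cell from glucose to fatty acid fuel, was at 12.2 to 43.1 TPM in CAC and at 9.58 to 13.1 in NCAC (1.33 ± 0.276, adjusted p = 0.000895). Hif3a, a hypoxia-inducible factor subunit, was called at 1.45 ± 0.428 (adjusted p = 0.0191), but not without NCAC replicate 2 (adjusted p = 0.0609) or NCAC replicate 5 (0.0739). The clock gene Per1 (0.70, adjusted p = 0.0678), the phosphatase Dusp1 (0.91, 0.175), the NF-kappaB inhibitor Nfkbia (0.38, 0.0574) and Gadd45g (0.23, 0.0791) were the 4 members that were not called.

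**Figure D2:**
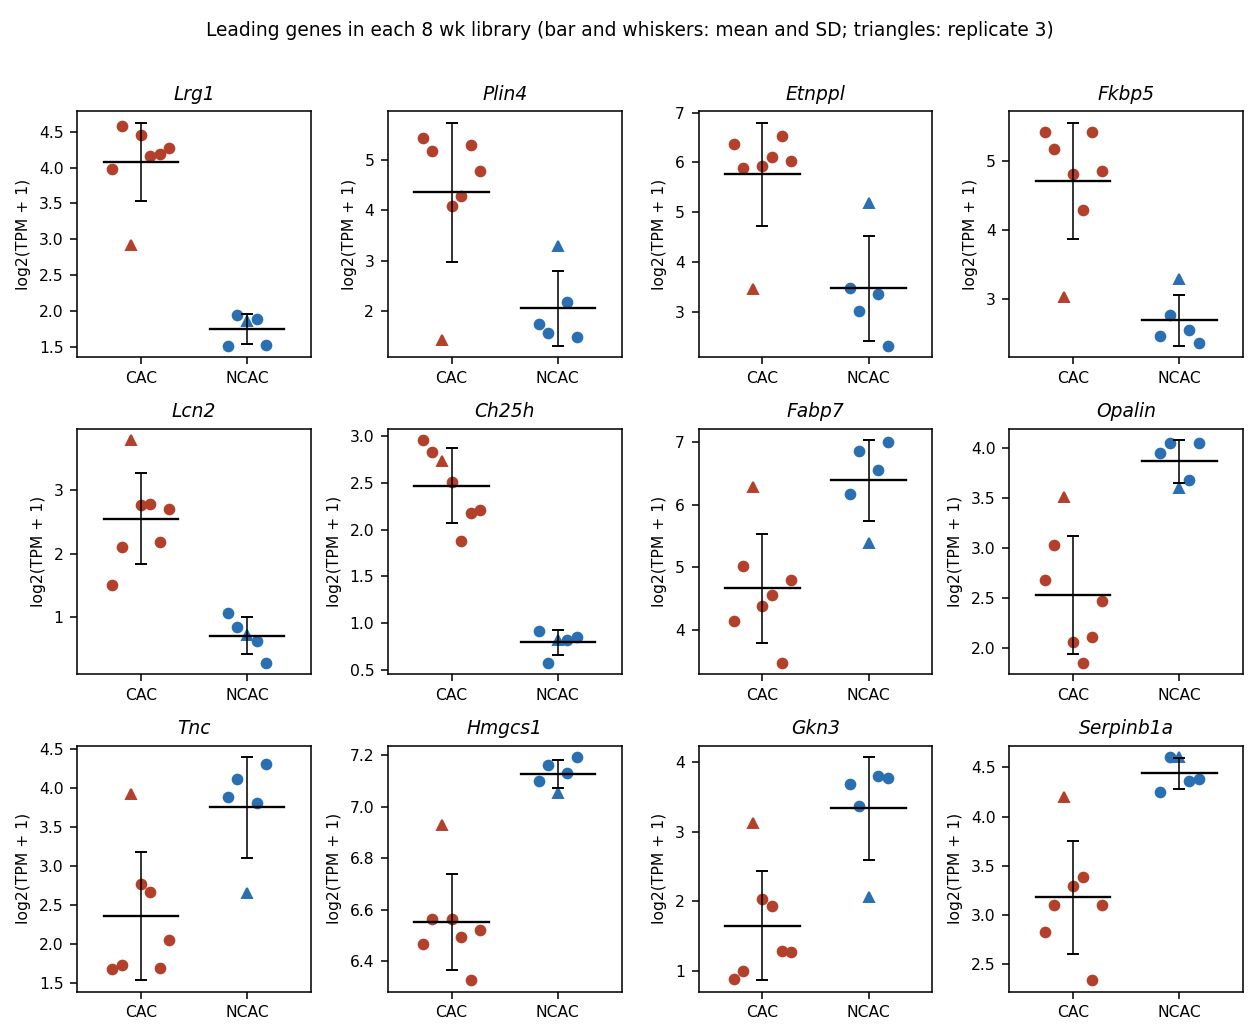
Log2(TPM + 1) of 12 leading genes in each CAC (red, n = 7) and NCAC (blue, n = 5) library of 8 wk, with group mean and SD; triangles mark replicate 3 of each group. In Plin4, Etnppl, Fkbp5, Fabp7, Tnc and Gkn3 the overlap of the groups involves 1 or both triangles, while Lrg1, Lcn2, Ch25h, Opalin, Hmgcs1 and Serpinb1a do not overlap.

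A glucocorticoid receptor motif was searched in the promoter windows as GNACA and TGTNC with 3 bases of any kind between them, which reads the same on both strands. Among genes with a window it was in 5 of 23 of the list (21.7%), against 119 of all 27025 (0.44%) and 36 of 10668 tested genes (0.337%). It was in 7 of 851 genes called higher (0.823%) and 2 of 430 called lower (0.465%). The 5 stretches are shown so that the paired sites, the capitals, can be compared. Each is on the gene's strand, 5′ to 3′, from RefSeq (GRCm38.p6). By GENCODE the stretches of Sgk1 and Fam107a lie within the gene, outside its exons, and that of Txnip overlaps an annotated exon outside the Txnip gene.
Sgk1, chr10:21993662-21993754, plus strand: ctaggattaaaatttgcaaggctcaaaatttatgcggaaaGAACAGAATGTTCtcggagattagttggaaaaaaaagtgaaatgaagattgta
Mt1, chr8:94178955-94179047, plus strand: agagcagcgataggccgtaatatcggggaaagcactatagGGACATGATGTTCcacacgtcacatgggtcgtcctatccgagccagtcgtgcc
Map3k6, chr4:133240597-133240689, plus strand: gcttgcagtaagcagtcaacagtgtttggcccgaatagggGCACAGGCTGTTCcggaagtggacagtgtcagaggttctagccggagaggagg
Fam107a, chr14:8309845-8309937, minus strand: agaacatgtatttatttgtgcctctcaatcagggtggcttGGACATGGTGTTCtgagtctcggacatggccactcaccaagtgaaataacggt
Txnip, chr3:96557745-96557837, plus strand: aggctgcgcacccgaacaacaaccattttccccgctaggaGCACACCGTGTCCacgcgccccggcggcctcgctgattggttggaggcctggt
All 5 genes rose. Sgk1, a kinase that regulates ion transport, averaged 98.4 ± 21 TPM in CAC and 51.3 ± 8.26 in NCAC with no overlap (0.91 ± 0.193, adjusted p = 0.00108). Fam107a, an actin-associated protein of astrocytes, averaged 1040.0 ± 253 and 628 ± 142 (0.71 ± 0.15, adjusted p = 0.00108). Txnip, a thioredoxin-interacting arrestin that limits glucose uptake, averaged 59.7 ± 17.9 and 32.4 ± 12.8 (0.87 ± 0.215, adjusted p = 0.00471). These 3 were named for their sequences after their values were seen. The windows without a match lack these letters in these bases only.

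The receptor machinery itself went in both directions. Of 13 tested genes of the receptor, its chaperones and its coregulators, 2 rose and 2 fell (30.8%), Fkbp5 being the member with the largest difference. The glucocorticoid receptor gene Nr3c1 fell by 0.19 (adjusted p = 0.0427), and the mineralocorticoid receptor gene Nr3c2 differed by 0.09 (adjusted p = 0.351). The coactivator Ncoa2 rose by 0.13 and the chaperone Fkbp4 fell by 0.17 ± 0.0553, calls that were lost without several single libraries (adjusted p up to 0.0874 for Ncoa2 and 0.106 for Fkbp4). Hsd11b1, which regenerates active glucocorticoid within cells, differed by -0.05 (adjusted p = 0.73).

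**Figure D3:**
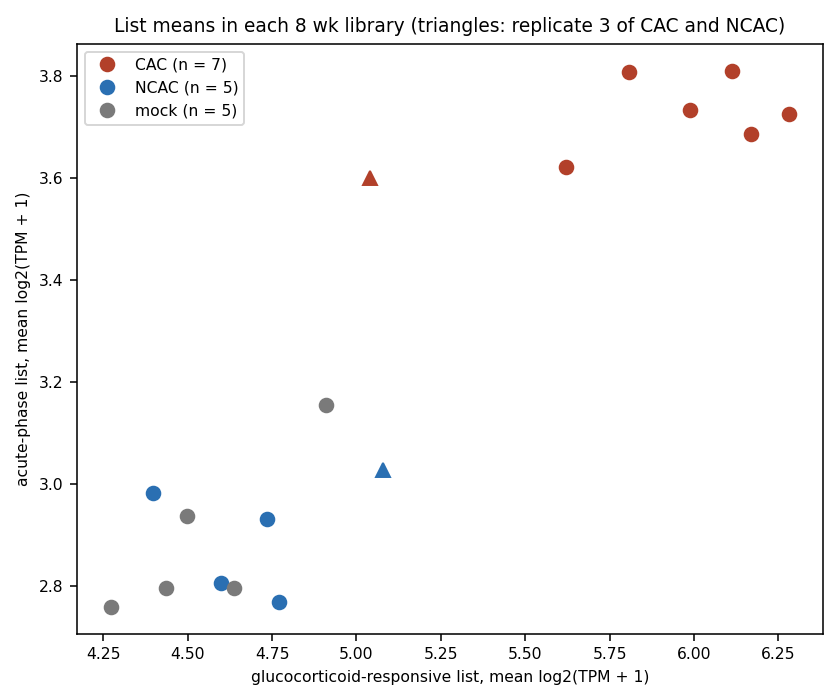
Mean log2(TPM + 1) over the tested glucocorticoid-responsive genes (horizontal) and acute-phase genes (vertical) in each 8 wk library of CAC, NCAC and mock mice; triangles mark replicate 3 of CAC and NCAC. CAC replicate 3 sits at 5.039 on the horizontal axis, within the NCAC range of 4.397 to 5.08, and at 3.6 on the vertical axis, above the NCAC range of 2.769 to 3.028. Lcn2 is counted on both axes.

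Genes of fuel use, nutrient sensing and growth arrest showed separate patterns. In the fasting and lipid fuel list 6 of 24 rose and 3 fell, with a median of -0.05. Those that rose were Plin4, Pdk4, the triglyceride lipase Pnpla2 (0.69 ± 0.141, adjusted p = 0.000752), the lipoprotein lipase inhibitor Angptl4 (0.50), the mitochondrial carrier Ucp2 (0.47) and the coactivator Ppargc1a (0.16). Oxct1, the enzyme that lets tissues burn ketone bodies, fell by 0.17 ± 0.0358, as did the lactate and ketone transporter Slc16a1 (-0.28) and the fatty acid binding protein Fabp3 (-0.23). Fitted on the 12 libraries alone, which leaves 10 residual degrees of freedom, Pnpla2 (adjusted p = 0.0683) and Oxct1 (0.0654) were not called. Enzymes of fatty acid oxidation such as Cpt1a (-0.04), Acadm (-0.05) and Hadha (-0.08) were not called.

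Of 20 tested genes of FOXO signalling, atrophy and autophagy 9 rose and 1 fell. Foxo1, the transcription factor held in check by insulin, was at 12.8 to 30.9 TPM with a median of 23.6 in CAC and at 11.2, 11.6, 13.2, 13.1 and 11.3 in NCAC (0.82 ± 0.144, adjusted p = 0.000142). CAC replicate 3 held the lowest CAC value, 12.8, below the highest NCAC library, and the other 6 CAC libraries lay above all of NCAC. Foxo3 (0.20), Foxo4 (0.26), the translation repressor Eif4ebp1 (0.49) and the autophagy proteins Map1lc3b (0.14), Gabarapl1 (0.12) and Sqstm1 (0.11) rose. On the 12 libraries alone Map1lc3b was not called (adjusted p = 0.0782). Fbxo32, the ubiquitin ligase atrogin-1 that marks wasting muscle, fell by 0.30. In the insulin and growth factor list 6 of 17 rose and none fell: the binding proteins Igfbp4 (0.96 ± 0.164, adjusted p = 8.25e-05) and Igfbp7 (0.54), the receptors Igf1r (0.27) and Insr (0.17), the adaptor Irs2 (0.38) and the regulatory subunit Pik3r1 (0.16). Igfbp4, Igfbp7 and Igf1r did not overlap between the groups.

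Among 13 metal-handling genes 6 rose and 1 fell. Mt3, the brain metallothionein, averaged 949 ± 115 TPM in CAC and 689 ± 44.9 in NCAC with no overlap (0.45 ± 0.07, adjusted p = 1.51e-05). Mt2 (1.33), the ferritin chain Fth1 (0.28) and the zinc and iron importer Slc39a14 (0.16) also rose, whereas the iron exporter ferroportin, Slc40a1, fell by 0.53 (adjusted p = 0.00161). Of 20 hypoxia genes 6 rose and 1 fell, but the lactate dehydrogenase gene of that list went the other way from Hif3a: Ldha fell by 0.25 ± 0.0692, while the glycolytic gene Pgk1 (-0.08) and the growth factor Vegfa (-0.16) were not called. The Ldha call was lost without CAC replicate 1 (adjusted p = 0.0526) and without NCAC replicate 5 (0.0512). Ddit4, an inhibitor of the growth kinase mTOR, was at 104 to 146 TPM with a median of 109 in CAC and at 82.9, 69, 79, 91.8 and 90.5 in NCAC with no overlap (0.53 ± 0.116, adjusted p = 0.0016). In the growth arrest list 4 of 15 rose, with Cdkn1a far ahead of Btg2 (0.50), Trp53inp1 (0.25) and Btg1 (0.23), and the apoptosis gene Bax fell by 0.16. Btg2 was lost without any 1 of 6 libraries (adjusted p up to 0.0914) and Bax without CAC replicate 1 (0.0537). Of 11 thyroid hormone genes 3 rose, the receptor Thra (0.24), its corepressor Hr (0.34) and Klf9 (0.27), a target of both thyroid hormone and glucocorticoid that was not called on the 12 libraries alone (adjusted p = 0.0682).

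Astrocyte and Bergmann glia genes moved in both directions. Of 24 tested 7 rose and 4 fell, with a median of 0.08, and with both replicate 3 libraries left out 10 rose and 5 fell. In bulk tissue, fewer cells of a type and less RNA per cell cannot be told apart, here and in the paragraphs that follow. Etnppl (chr3:130617448-130637521), an astrocyte enzyme that breaks down phosphoethanolamine, was at 9.99 to 91.5 TPM with a median of 64.1 in CAC and at 10.1, 7.07, 35.2, 9.32 and 3.98 in NCAC. The difference was 2.29 ± 0.413, adjusted p = 0.000177, and 3.10 without both replicate 3 libraries. CAC replicate 3 was the lowest CAC library and NCAC replicate 3 the highest NCAC library, and apart from these 2 the groups did not overlap. Phyhd1, a dioxygenase, averaged 44.1 ± 17.1 and 15.7 ± 9.59 TPM (1.45 ± 0.256, adjusted p = 0.00014). Other members that rose were the connexin Gjb6 (0.67), glutamine synthetase Glul (0.60), the receptor Fgfr3 (0.38), Ndrg2 (0.24) and the glycolytic enzyme Aldoc (0.28 ± 0.0545, adjusted p = 0.000423). Aldoc was lost under quantile normalization (adjusted p = 0.172). That setting makes the highest values nearly equal, and Aldoc averaged 2115 TPM in CAC, so this loss decides little.

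Fabp7 (chr10:57784881-57788450), a lipid carrier typical of radial glia and their Bergmann descendants, was the gene with the largest difference downward among those called. Its level was 10.1 to 77.1 TPM with a median of 22.6 in CAC and 70.8, 115, 40.9, 92.8 and 126 TPM in NCAC. CAC replicate 3 (77.1) was the highest CAC library and NCAC replicate 3 (40.9) the lowest NCAC library, and the other CAC libraries were below all of NCAC. The difference was -1.73 ± 0.344, adjusted p = 0.000581, and -2.25 without these 2. Tnc, the matrix protein tenascin C that Bergmann glia release, was at 2.2 to 14.2 TPM with a median of 3.16 in CAC and at 13.8, 16.4, 5.3, 13 and 18.9 in NCAC (-1.39 ± 0.284, adjusted p = 0.000752). On the 12 libraries alone its adjusted p was 0.0561. The water channel Aqp4 fell by 0.50 and the Bergmann glial AMPA receptor subunit Gria4 by -0.17, the latter lost without CAC replicate 6 (adjusted p = 0.0546) or NCAC replicates 1 (0.054) or 5 (0.0736). The glutamate transporters Slc1a2 (0.12) and Slc1a3 (0.03) and the general marker Aldh1l1 (0.14) were not called. Of 12 reactive astrocyte genes 5 rose and none fell (Lcn2, Serpina3n, Osmr, Cp and Aspg at 0.39), while the filament genes Gfap (0.41, adjusted p = 0.069) and Vim (-0.01, 0.983) were not called.

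Genes of cholesterol synthesis were lower in CAC. Of 24 tested 12 fell and none rose, every difference was below 0, and the median was -0.23. The libraries of the groups did not overlap for 6 of them, and without both replicate 3 libraries 16 fell and 14 did not overlap, beside 988 genes that fell and 644 with CAC below of 14402. The list mean was 5.057 in CAC replicate 3 (others 4.818 to 4.908) and 5.013 in NCAC replicate 3 (others 5.16 to 5.24). The larger counts thus follow from leaving these libraries out and add no support. Hmgcs1 (chr13:119690379-119708260), which makes the HMG-CoA that feeds the pathway, was at 79.2 to 121 TPM with a median of 90.9 in CAC and at 136, 142, 132, 139 and 145 in NCAC. Every CAC library was below every NCAC library, and the difference was -0.58 ± 0.0858, adjusted p = 9.13e-06. Idi1, an isomerase of the isoprenoid steps, averaged 33.8 ± 4.47 TPM in CAC and 50 ± 5.38 in NCAC (-0.55 ± 0.0969, adjusted p = 0.000129), and Cyp51, the lanosterol demethylase, averaged 24.3 ± 2.35 and 36.3 ± 4.89 (-0.55 ± 0.102, adjusted p = 0.000256). Neither overlapped. Squalene epoxidase, Sqle (-0.52), and Dhcr7 (-0.48), an enzyme late in the route, fell as well. The regulators Srebf2 (-0.15, adjusted p = 0.217) and Insig1 (-0.23, 0.116) were not called.

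The Hmgcs1 promoter is shown because Hmgcs1 was the 1 gene, of 17 with a window in the cholesterol list (5.88%), that held the sterol regulatory motif TCACNCCAC, searched on both strands. The motif was in 331 of all 27025 genes with a window (1.22%). It was in 10 of 430 genes called lower (2.33%) and 13 of 851 called higher (1.53%). The bases after the start site of this Hmgcs1 window did not open a GENCODE transcript of the gene. Capitals mark the match on the gene's strand, 5′ to 3′ (RefSeq, GRCm38.p6).
Hmgcs1, chr13:119690174-119690262, plus strand: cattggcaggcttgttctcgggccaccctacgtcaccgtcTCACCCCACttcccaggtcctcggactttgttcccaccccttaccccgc

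Genes around this pathway went in both directions. Of 10 genes of oxysterols and cholesterol efflux 4 rose and none fell: Ch25h, the exporter Abca1 (49.7 ± 7.88 TPM in CAC and 35.4 ± 2.86 in NCAC, no overlap, 0.46 ± 0.0997, adjusted p = 0.00126), the ubiquitin ligase Mylip (0.42), and Apoe (0.18 ± 0.0494, adjusted p = 0.011). The Apoe call was lost without NCAC replicate 2 (adjusted p = 0.0929) and on the 12 libraries alone (0.127). It was also lost under quantile normalization (0.549), which makes the highest values nearly equal. Apoe averaged 1735 TPM in CAC, so that this last loss decides little. In fatty acid synthesis 2 of 15 rose and 3 fell: Srebf1, the regulator of that pathway, rose by 0.32 ± 0.0674 (adjusted p = 0.000912) and Acaca by 0.23, whereas the desaturases Fads1 (-0.29) and Fads2 (-0.31) and malic enzyme Me1 (-0.20) fell. On the 12 libraries alone Me1 was not called (adjusted p = 0.0807).

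Myelin genes formed the other large group that was lower. Of 24 tested oligodendrocyte and myelin genes 12 fell and 1 rose, with a median of -0.27, and their TPM summed to between 2799 and 3485 in CAC and between 3656 and 4037 in NCAC, with no overlap. The mock libraries spread over both ranges (3349 to 4684). Opalin (chr19:41061710-41077113, minus strand), a membrane glycoprotein of myelinating oligodendrocytes, was at 2.61 to 10.4 TPM with a median of 4.54 in CAC and at 14.5, 15.6, 11.1, 11.8 and 15.6 in NCAC. All CAC libraries were below all NCAC libraries (-1.34 ± 0.278, adjusted p = 0.000896). Gal3st1, which adds the sulfate to the myelin lipid sulfatide, was at 5.65 to 8.37 TPM with a median of 6.94 in CAC and at 8.96, 12, 11.6, 11 and 11.4 in NCAC, again with no overlap (-0.60 ± 0.11, adjusted p = 0.000211). Ugt8a, which makes the precursor galactosylceramide, averaged 26.1 ± 9.13 and 45.8 ± 9.63 TPM (-0.82 ± 0.154, adjusted p = 0.000301).

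Among other proteins of myelin, the adhesion molecule Mag (-0.42) and the phosphodiesterase Cnp (-0.17) fell. Mbp (-0.19, adjusted p = 0.0511), Mog (-0.24, 0.0776) and Mobp (0.14, 0.391) were not called. Hapln2, which binds hyaluronan at nodes of Ranvier, rose by 0.37. Of 16 genes of oligodendrocyte precursors and newly formed oligodendrocytes 6 fell and none rose. Those that fell were Gpr17, a receptor of differentiating precursors (-0.85 ± 0.188, adjusted p = 0.00173), Enpp6 (-0.51), Bcas1, a marker of newly formed cells (-0.42 ± 0.0949, adjusted p = 0.00231), the matrix gene Tnr (-0.27), Olig1 (-0.31) and the kinase Fyn (-0.12). The precursor marker Pdgfra differed by 0.03 (adjusted p = 0.867) and Cspg4 by -0.21 (0.087). Tnr was not called on the 12 libraries alone (adjusted p = 0.0597). Pllp, the myelin proteolipid plasmolipin, and Klk6, a kallikrein protease of oligodendrocytes, were outside these lists but among the 15 called genes with the largest differences downward. Pllp differed by -0.78 ± 0.155 (adjusted p = 0.000581) and Klk6 by -1.04 ± 0.252 (0.0041).

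**Figure D4:**
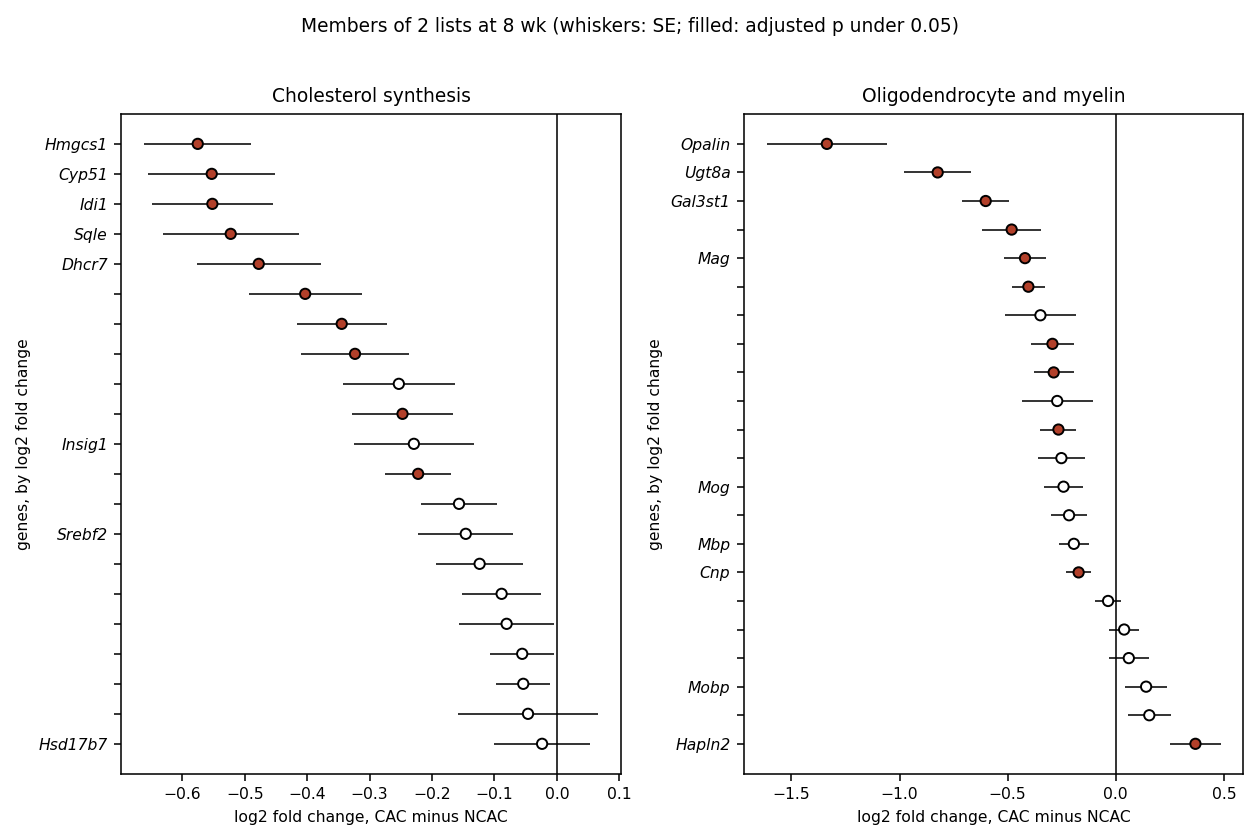
Log2 fold change of CAC against NCAC at 8 wk (whiskers: SE) for members of the cholesterol synthesis list and of the oligodendrocyte and myelin list, labelled where the text names them; filled points have an adjusted p under 0.05. All cholesterol genes plotted lie left of 0, from -0.02 (Hsd17b7) to -0.58 (Hmgcs1), while the myelin genes run from -1.34 (Opalin) to 0.37 (Hapln2).

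Neuronal genes changed in both directions. Of 22 Purkinje cell genes 1 rose and 1 fell (9.09%, against 11.8% of all genes tested): the calcium buffer Pvalb rose by 0.14 ± 0.031 and the carbonic anhydrase-like protein Car8 fell by 0.16 ± 0.0458. Neither call held throughout. Pvalb was lost on the 12 libraries alone (adjusted p = 0.0556) and Car8 without CAC replicate 6 (0.0748) or NCAC replicates 2 (0.0587) or 5 (0.0783). Pvalb was also lost under quantile normalization (0.949). That setting makes the highest values nearly equal, and Pvalb averaged 1824 TPM in CAC, so this loss decides little. The Purkinje markers Pcp2 (0.07) and Calb1 (-0.00) were not called. Of 19 granule neuron genes 1 rose and 3 fell (21.1%). Chn2, a Rac-directed GTPase activator, averaged 575 ± 29.7 TPM in CAC and 482 ± 18.7 in NCAC with no overlap (0.25 ± 0.0477, adjusted p = 0.000328). The vesicular glutamate transporter Slc17a7 (-0.24 ± 0.0551, adjusted p = 0.00277), the cadherin Fat2 (-0.34) and the synapse organizer Cbln1 (-0.30) fell, and the granule cell markers Gabra6 (0.07) and Neurod1 (-0.04) were not called.

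At synapses, 3 of 24 presynaptic genes fell (12.5%) and none rose, among them Slc17a7 and the scaffold Pclo (-0.26). On the 12 libraries alone Pclo was not called (adjusted p = 0.0624). Scaling moved this count upward, to 5, 7 or 9 that fell. Of 25 transmitter receptor genes 3 fell (12%) and none rose. Grm4, the metabotropic glutamate receptor of parallel fibre terminals, was at 193 to 392 TPM with a median of 226 in CAC and at 391, 388, 356, 436 and 379 in NCAC (-0.67 ± 0.129, adjusted p = 0.000389), overlapping through CAC replicate 3 (392) alone. The GABA receptor subunit Gabra2 fell by 0.38 ± 0.0761 (adjusted p = 0.000692), and Gria4 is given above. Of 30 ion channel genes 5 rose and 4 fell (30% in all). The leak potassium channel Kcnk9 was at 51.4 to 73.4 TPM with a median of 64.2 in CAC and at 43.3, 45.5, 48.6, 42.9 and 44.6 in NCAC with no overlap (0.46 ± 0.0784, adjusted p = 7.78e-05), and Kcnq3, Kcnc4, Cacna1a and Scn1a rose by 0.31, 0.23, 0.18 and 0.17. Among those that fell were the pacemaker channel Hcn2 (-0.25), Kcna6 (-0.19) and the calcium channel Cacna1e (-0.59 ± 0.147, adjusted p = 0.00496). Cacna1e was not called on the 12 libraries alone (adjusted p = 0.0957).

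Vessel genes were divided. Of 27 endothelial and barrier genes 9 rose and 2 fell. Vwf, the von Willebrand factor that endothelium stores and releases for clotting, was at 9.9 to 18.3 TPM with a median of 13.2 in CAC and at 5.07, 5.49, 4.8, 5.11 and 5.47 in NCAC. Its groups were well apart, with a difference of 1.27 ± 0.148 (adjusted p = 5.31e-08). Ly6c1, an endothelial surface protein, was at 62.8 to 112 TPM with a median of 94.3 in CAC and at 52.3, 51.1, 50.4, 51 and 44.8 in NCAC, again with no overlap (0.86 ± 0.103, adjusted p = 8.63e-08). The related Ly6a rose by 1.18. Barrier transporters that rose were the glucose transporter Slc2a1 (144 ± 20.2 and 93 ± 8.32 TPM, 0.61 ± 0.144, adjusted p = 0.00294), the lipid transporter Mfsd2a (0.74), Slco1a4 (0.29) and Abcb1a (0.18), and the junction proteins Esam (0.34) and Pecam1 (0.21) rose as well. The growth factor receptor Kdr (-0.46) and the caveolar protein Cav1 (-0.24) fell, while Cldn5 (0.02) and Cdh5 (-0.03) were not called. Of 14 genes of pericytes and smooth muscle none was called by limma, the smallest adjusted p being that of Cspg4 (0.087).

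In the matrix list 2 of 24 rose and 4 fell. Sparc, a collagen-binding glycoprotein of glia and vessels, was at 963 to 1608 TPM with a median of 1425 in CAC and at 805, 820.4, 1070.0, 863 and 821 in NCAC (0.64 ± 0.086, adjusted p = 9.79e-07). Only the lowest CAC library, replicate 3, lay within the NCAC range. Fibronectin, Fn1, rose by 0.44, and the proteoglycan Ncan (-0.27), the basement membrane protein Nid1 (-0.30), Tnr and Tnc fell. Among 15 meningeal and fibroblast genes the calcification inhibitor Mgp rose from 45.4 ± 6.05 TPM in NCAC to 90.2 ± 16.4 in CAC with no overlap (0.96 ± 0.208, adjusted p = 0.00141), and the fibril genes Col3a1 (-0.56) and Lum (-0.58) fell. These 2 calls were lost without single libraries, with adjusted p-values up to 0.0769 for Col3a1 and 0.103 for Lum. Gkn3, a gastrokine that in brain marks arterial endothelium, was at 0.856 to 7.7 TPM with a median of 1.46 in CAC and at 11.9, 9.28, 3.16, 12.9 and 12.6 in NCAC (-1.68 ± 0.328, adjusted p = 0.000459). The replicate 3 libraries were again the highest of CAC and the lowest of NCAC, and the others did not overlap.

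Complement genes that were called were higher in CAC than in NCAC. Those named here were not called against mock mice, a pattern that some genes of other lists shared. Of 11 tested 5 rose and none fell, with a median of 0.36. C4b was at 22 to 42.7 TPM with a median of 29.4 in CAC and at 15, 15.1, 15.6, 8.26 and 13.8 in NCAC, with no overlap (1.05 ± 0.251, adjusted p = 0.00326). The mock libraries averaged 27.8 ± 15.7 TPM (16.3 to 54.7), and C4b differed by 0.18 between CAC and mock (adjusted p = 0.665) and by -0.88 between NCAC and mock (0.51). Mock replicate 5 had a complement list mean of 4.401 in log2(TPM + 1), the other mock libraries 3.543 to 3.907. The range was 3.711 to 3.932 in CAC and 3.244 to 3.526 in NCAC. Mock replicate 5 was also the highest mock library for class II (6.115) and lymphocyte genes (6.082). Its part in the missing calls against mock was not tested. C1qb (0.51 ± 0.161, adjusted p = 0.0289) and C1qc (0.53 ± 0.163, adjusted p = 0.0246) were also called against NCAC, with -0.18 and -0.05 between CAC and mock and -0.69 and -0.58 between NCAC and mock, none of them called. The C1qb call was lost without CAC replicates 2 or 7 or NCAC replicates 1 or 4 (adjusted p up to 0.0769), and that of C1qc without NCAC replicates 2 (0.0521) or 4 (0.0924). C4a, a near copy of C4b with which it may share reads, rose by 0.44.

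Microglia genes were called in the same share as all genes tested, and no interferon or antigen presentation genes were called. Of 17 microglia genes 2 fell (11.8%, where 4.01% of all genes were lower) and none rose: the purinergic receptor P2ry13 averaged 3.04 ± 0.88 TPM in CAC and 4.72 ± 0.872 in NCAC (-0.51 ± 0.129, adjusted p = 0.00539), and Fcrls fell by 0.35. P2ry13 was not called on the 12 libraries alone (adjusted p = 0.0662), and Fcrls was lost without any 1 of 5 libraries (adjusted p up to 0.146). Tmem119 (-0.07), Cx3cr1 (-0.17) and Csf1r (0.11) were not called. Of 25 interferon-response genes limma called none, the smallest adjusted p being that of Ifitm3 (0.56 ± 0.199, 0.0542), and none of 13 class I and 4 class II antigen presentation genes was called (Tap2 0.111, H2-Ab1 0.87). None of 8 tested cachexia mediators and their receptors was called either, the smallest adjusted p being that of the activin receptor Acvr2a (0.159).

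Genes encoded by mitochondrial DNA were lower by small amounts. Nuclear, ribosomal and proteasome genes were called in shares below or little above the 11.8% of all genes tested, and these counts depended on scaling. Of 13 genes encoded by mitochondrial DNA 6 fell and none rose, with a median of -0.16. The complex I gene mt-Nd2 went from 9347 ± 524 TPM in NCAC to 7650.0 ± 418 in CAC with no overlap (-0.29 ± 0.0543, adjusted p = 0.000303). After median-of-ratios scaling 6 fell as well, with a median of -0.18. Quantile normalization makes the highest values of all libraries nearly equal, and these genes are among the highest. That none of the 13 was called under it therefore decides nothing. Of 48 nuclear genes of oxidative phosphorylation 2 fell (4.17%, where 4.01% of all genes were lower). These were Sdhd (-0.10) and Ndufa1 (-0.15), both lost without several single libraries (adjusted p up to 0.133 and 0.156). The count that fell was 4 after median-of-ratios scaling, 5 after quantile normalization and 8 with the mitochondrially encoded genes removed. Of 77 cytosolic ribosomal protein genes 11 rose and none fell (14.3%, where 7.76% of all genes were higher), with a median of 0.05. After median-of-ratios scaling 1 was called, and with both replicate 3 libraries left out 20 were. Rpl10 averaged 74.8 ± 3.43 and 59.5 ± 4.56 TPM (0.33 ± 0.0781, adjusted p = 0.00348); many ribosomal protein genes have processed copies with which reads may be shared. Of 31 proteasome genes 3 rose (9.68%, near the 7.76% of all genes that were higher), by 0.07 to 0.11. After median-of-ratios scaling none was called.

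Stress, clock and activity genes were called in shares above the 11.8% of all genes tested, with no test of these differences. In the unfolded protein and integrated stress list 4 of 27 rose (14.8%): the phosphatase subunit Ppp1r15a (0.33), Atf5 (0.31), Herpud1 (0.26) and the serine synthesis enzyme Psat1 (0.21). Ppp1r15a was lost without NCAC replicates 2 (adjusted p = 0.0818) or 4 (0.0521), and Atf5, whose CAC replicate 4 was high, stood at 0.19 without that library (0.0572) and was also lost without NCAC replicate 1 (0.0724). On the 12 libraries alone Psat1 (0.101) and Cryab (0.0646) were not called, nor was Cat. Of 22 heat shock genes 1 rose and 3 fell (18.2% in all), with the lens and oligodendrocyte chaperone Cryab at -0.45 ± 0.102 (adjusted p = 0.00209). In the antioxidant list 2 of 12 rose and 2 fell (33.3%), among them the quinone reductase Nqo1 (0.42 ± 0.0884, adjusted p = 0.000896) upward and catalase, Cat (-0.22), downward. Of 20 clock genes 4 rose and none fell (20%). Among them were Npas2 (0.56 ± 0.144, adjusted p = 0.00705), Cry1 (0.49) and Bhlhe40 (0.32). Cry1 was lost without NCAC replicate 2 (adjusted p = 0.0524), and the hours at which tissue was taken are not given in the labels. Of 15 immediate early genes 3 rose (20%), which were Junb, Btg2 and Dusp6 (0.43), while Fos differed by 1.31 without being called (adjusted p = 0.295). Dusp6 was lost without NCAC replicate 3 (0.0624).

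Markers of other tissue that a dissection could include differed by list: those of choroid plexus and blood were not called, and those of forebrain and brainstem were. None of 17 choroid plexus genes was called by limma (smallest adjusted p 0.206, Prlr), and the list summed to between 3077 and 8259 TPM in CAC and between 1585 and 7727 in NCAC. None of 6 red blood cell genes was called, and their sum ran from 129.1 to 20420 TPM in CAC, the top being replicate 3, and from 926.8 to 2153 in NCAC. None of the 3 lymphocyte genes that passed the minimum was called. Melanocyte genes, looked at because the tumours are melanomas, were low: 2 of 9 passed the minimum, and the list summed to between 9.74 and 11.6 TPM in CAC and 9.05 and 13.4 in NCAC. Of these Pmel was called lower (-0.32 ± 0.109) at 0.293 to 1.06 TPM in CAC and 0.764 to 1.27 in NCAC, a call lost without any 1 of 8 libraries (adjusted p up to 0.135). Both forebrain genes that passed the minimum rose (Ppp1r1b 0.28, Neurod6 0.27), as did the 1 brainstem gene, Th (0.57). The mean log2(TPM + 1) of the forebrain pair was 5.184 to 5.37 in 6 CAC libraries, above the 4.905 to 5.057 of NCAC, and 5.015 in CAC replicate 3. The part of forebrain or brainstem tissue in the other differences was not tested. Th was lost without any 1 of 5 libraries (adjusted p up to 0.195), and Neurod6 without NCAC replicate 4 (0.0655), and on the 12 libraries alone Ppp1r1b was not called (0.0708).

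A few of the called genes with the largest differences fell outside these groups. Tmem252, which encodes a transmembrane protein, was at 4.12 to 11.5 TPM with a median of 6.79 in CAC and at 2.4, 1.06, 0.569, 0.57 and 1.03 in NCAC with no overlap (1.95 ± 0.257, adjusted p = 5.34e-07). Serpinb1a, an intracellular inhibitor of neutrophil proteases, was at 4.05 to 17.4 TPM with a median of 7.58 in CAC and at 18.1, 23.3, 23.4, 19.5 and 19.8 in NCAC. Its groups did not overlap either, and the difference was -1.26 ± 0.188, adjusted p = 9.13e-06. Ntf3, the neurotrophin that granule neurons supply to Purkinje cells, was at 2.55 to 6.41 TPM with a median of 3.23 in CAC and at 9.76, 6.49, 5.23, 9.39 and 10.4 in NCAC (-1.04 ± 0.163, adjusted p = 2.15e-05). Only CAC replicate 3, its highest CAC library, reached the NCAC range. Cd70, a ligand of the tumour necrosis factor family (-1.19 ± 0.259), Sost, the Wnt antagonist sclerostin (-1.12 ± 0.247), the nicotinic receptor subunit Chrnb4 (-0.93 ± 0.209) and the collagen Col2a1 (-0.997 ± 0.271) were also lower. On the 12 libraries alone Cd70 (adjusted p = 0.0579), Sost (0.0697) and Col2a1 (0.0592) were not called, and Col2a1 was lost without NCAC replicates 1 (0.0562) or 5 (0.0514).

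The 8 wk difference was set against the same difference at the earlier weeks, each with its own libraries. At 2 wk limma called no gene (987 at an unadjusted p under 0.05), and at 4 wk 1 gene (0.00694%), Lrg1 at 1.32. At 6 wk 1361 genes were called (9.45%, with 7.47% higher and 1.99% lower), and 587 of the 1695 genes of 8 wk were among them (34.6% of the 8 wk calls and 43.1% of the 6 wk calls), while 1628 had the same sign at 6 wk. The change of the difference from 2 to 8 wk, tested as an interaction, was called for 572 genes (3.97%), 384 upward (2.67%) and 188 downward (1.31%). From 6 to 8 wk it was called for 0 genes, with 698 at an unadjusted p under 0.05. Leaving out both replicate 3 libraries raised the 2 to 8 wk count to 1325, and leaving out CAC replicate 3 alone raised it to 1138.

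By list, the change from 2 to 8 wk was upward for 21 of 26 glucocorticoid-responsive genes, for 4 of 12 acute-phase genes and for 6 of 22 genes of the interleukin-6 list. It was downward for 5 of 24 myelin genes and for 4 of 24 cholesterol synthesis genes. Lrg1 differed by 0.62 at 2 wk, 1.32 at 4 wk, 2.05 at 6 wk and 2.34 at 8 wk, a change from 2 to 8 wk of 1.72 ± 0.346, adjusted p = 0.0051. Fkbp5 went from -0.40 at 2 wk through 1.22 at 6 wk to 2.04 (2.43 ± 0.498, adjusted p = 0.00556), and Plin4 from -0.74 through 1.74 to 2.30 (3.04 ± 0.798, adjusted p = 0.0228). The difference was thus nearer 0 or of the other sign at 2 wk, when none of these genes was called. Downward, Fabp7 went from 0.51 through -1.51 to -1.73 (-2.24 ± 0.506, adjusted p = 0.00973), Opalin from 0.33 through -1.28 to -1.34 (-1.67 ± 0.41, adjusted p = 0.0159) and Hmgcs1 from 0.04 through -0.37 to -0.58 (-0.62 ± 0.126, adjusted p = 0.00556). At 2 wk NCAC, mock and CAC averaged 5.95, 2.66 and 3.1 TPM for Plin4 and 8.41, 5.41 and 5.92 for Fkbp5. For Fabp7 they averaged 87.2, 137 and 128, and for Opalin 14.7, 18.2 and 18.4. In these 4 genes CAC was nearer to mock than NCAC was, as it was for Lrg1 (1.52, 2.52 and 3.12). The part of the 2 wk NCAC libraries in the changes was not tested. For Fabp7, Opalin and Etnppl the difference at 6 wk was already close to that at 8 wk, with 2.47 for Etnppl. Lcn2 stood at 0.92 at 6 wk and 1.85 at 8 wk, and Zbtb16 at 0.54 and 2.01, but neither change from 6 to 8 wk was called.

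**Figure D5:**
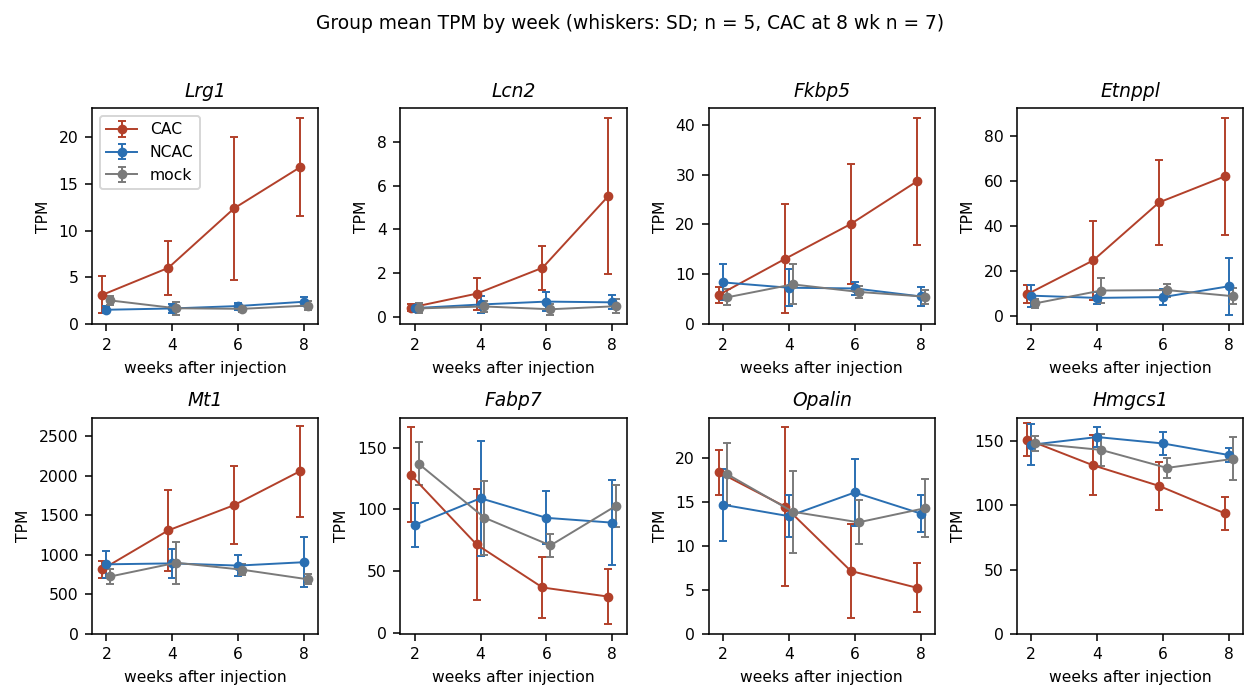
Group mean TPM (whiskers: SD; n = 5, and 7 for CAC at 8 wk) at 2, 4, 6 and 8 wk after injection for 8 genes in CAC, NCAC and mock mice. In CAC the means of Lrg1, Lcn2, Fkbp5, Etnppl and Mt1 are highest at 8 wk and those of Fabp7, Opalin and Hmgcs1 lowest.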

How the data were processed

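RNA of mouse cerebellum was sequenced from libraries made with a stranded mRNA kit, per the labels' protocols. The authors deposited 1 table of TPM for 47643 symbols in 62 libraries, each summing to 1e+06, so that values are relative to all transcripts of a library and depth is unknown. The build is mm10, per the submitters' processing notes; what aligned and quantified the reads, with which annotation and whether by strand, is not given in the sources used here. Libraries were grouped by their description label; a treatment field that calls every sample cachectic and a protocol that names another cell line were not used.

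TPM were taken as log2(TPM + 1), so that fold changes of low genes are understated, and 14399 symbols with a mean of at least 1 TPM over the 62 libraries were tested with limma 3.58.1 (R 4.3.3): 12 group means, moderated variances with a trend, 50 residual degrees of freedom, two-sided, Benjamini-Hochberg adjustment over all genes. The change from 2 or 6 to 8 wk was a contrast of the same model. The fit was tested on simulated data. Coordinates (GENCODE M21) matched 13902 of the tested symbols, and promoters came from RefSeq. For 16235 of 32851 promoter windows (49.4%) the bases after the start site opened a GENCODE transcript of the gene. Of the windows shown, those of Socs3 and Hmgcs1 did not. Figures used Python 3.11.15 and matplotlib 3.10.9.

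The comparison, the 51 gene lists (958 genes, 855 tested) and the rule for named genes were chosen with earlier results of these data known. The rule took the 15 called genes with the largest differences in each direction, 3 called members per list by smallest p and, for a list with none called, 1 member; clone names were passed over. It gave 131 genes, of which 127 are reported here, and other list members are named by their list or after their values were seen. Alternatives were another pseudocount or minimum, other scalings, array weights, robust variances, a choroid plexus covariate, a replicate block, the 2 groups alone, a 1.5-fold limit and leaving out libraries. Replicate numbers were checked for pairing.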

Additional observations from a re-analysis of the deposited data

Results flagged for a closer look

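Each of the 127 named genes reported here was looked at in both groups for a single library far from the others. Of 254 such sets of TPM values 37 had one. The cutoffs give about 1 in 20 for independent sets of normally distributed values. TPM need not be so distributed and the sets share libraries, so that the excess over this rate has no clear meaning. CAC replicate 3 accounted for 16 of them and NCAC replicate 3 for 15. CAC replicate 3 was above the other 6 CAC libraries for Cacna1e at 44.3 (others 19.7 to 27.3), Chrnb4 at 4.3 (others 0.754 to 1.67), Col3a1 at 3.38 (others 1.11 to 1.84), Fabp7 at 77.1 (others 10.1 to 31.3), Gkn3 at 7.7 (others 0.856 to 3.12) and Grm4 at 392 (others 193 to 265). It was also above them for Hmgcs1 at 121 (others 79.2 to 93.7), Lcn2 at 12.9 (others 1.85 to 5.88), Ntf3 at 6.41 (others 2.55 to 3.92), Serpina3h at 11.4 (others 3.54 to 5.24), Serpinb1a at 17.4 (others 4.05 to 9.46) and Slc4a1 at 3.4 (others 0.949 to 1.83). It was also above them for Sost at 6.1 (others 0.363 to 1.95) and Tnc at 14.2 (others 2.2 to 5.82). It was below them for Etnppl at 9.99 (others 58.3 to 91.5) and Psmc5 at 373 (others 408 to 430.3). NCAC replicate 3 was above the other 4 NCAC libraries for Etnppl at 35.2 (others 3.98 to 10.1), Nqo1 at 24.1 (others 17.3 to 19.2), Phyhd1 at 32.3 (others 7.55 to 12.9), Plin4 at 8.84 (others 1.81 to 3.53), Pnpla2 at 39.3 (others 25.8 to 27.7) and Rpl7 at 257 (others 244 to 247). It also exceeded them for Sparc at 1070.0 (others 805 to 863), Sult1a1 at 26.1 (others 7.2 to 10.7) and Thra at 349.5 (others 287 to 298). It lay below them for Bcas1 at 80.4 (others 97.8 to 104), Cacna1e at 23.6 (others 41.5 to 47.3), Cryab at 128 (others 158 to 168), Klk6 at 18 (others 27.4 to 31), mt-Nd2 at 8426 (others 9412 to 9649) and Tnr at 31.3 (others 41 to 44.7). The remaining sets were Atf5 in CAC replicate 4, at 69.5 against 36.4 to 45.8 in the others, C4b in NCAC replicate 4, at 8.26 against 13.8 to 15.6 in the others, Chrnb4 in NCAC replicate 2, at 5.47 against 3.19 to 3.79 in the others, Esam in NCAC replicate 2, at 16.8 against 13.6 to 14.4 in the others, Ly6c1 in NCAC replicate 5, at 44.8 against 50.4 to 52.3 in the others and Tmem252 in NCAC replicate 1, at 2.4 against 0.569 to 1.06 in the others.

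The difference between CAC and NCAC changed from 2 to 8 wk for 56 of these genes, by limma on the change itself with an adjusted p under 0.05 over all genes tested. Over all genes tested 572 changed (3.97%). The named genes were chosen by their 8 wk difference, which is part of this change, so that a larger share among them was built in. Values are the change of the log2 difference. It rose most for Plin4 (3.04), Zbtb16 (2.65), Map3k6 (2.49), Fkbp5 (2.43), Hif3a (2.26), Sult1a1 (2.23), Etnppl (2.16), Cebpd (2.09), Tmem252 (2.02) and Lcn2 (1.82). Next came Serpina3h (1.82), Pdk4 (1.80), Lrg1 (1.72), Ch25h (1.57), Cdkn1a (1.45), Mt1 (1.27), Vwf (1.21), Mgp (1.10), Foxo1 (0.96) and Slc2a1 (0.85). Smaller rises were those of Igfbp4 (0.83), Ly6c1 (0.81), Pnpla2 (0.74), Cry1 (0.73), Osmr (0.70), Socs3 (0.70), Ddit4 (0.63), Ppp1r15a (0.55), Sparc (0.47) and Fbxo31 (0.40). Last were Kcnk9 (0.39), Klf9 (0.38), Kcnq3 (0.37), Mt3 (0.35), Igf1r (0.34), Chn2 (0.24), Thra (0.23) and Pvalb (0.20). It fell most for Fabp7 (-2.24), Opalin (-1.67), Sost (-1.49), Col2a1 (-1.45), Serpinb1a (-1.40), Cd70 (-1.29), Chrnb4 (-1.12), Ntf3 (-1.02), Pllp (-0.99) and Col3a1 (-0.87). Smaller falls were those of Grm4 (-0.80), Ugt8a (-0.80), P2ry13 (-0.66), Gal3st1 (-0.65), Cyp51 (-0.64), Hmgcs1 (-0.62), mt-Nd2 (-0.29) and Slc17a7 (-0.28).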

How the results depend on the processing

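At 8 wk 1695 genes were called. The count was 2630 with array weights, 685 with the 2 groups alone, 167 with the 1.5-fold limit, 374 by libraries that do not overlap, 2580 without both replicate 3 libraries, and 1101 (without NCAC replicate 5) to 2304 (without CAC replicate 3) leaving out 1 library. Higher calls (1117) were 501 with the 2 groups alone. Lower calls (578) were 897 after median-of-ratios scaling, 970 after quantile normalization, 1068 with mitochondrially encoded genes removed, 960 with array weights, 184 with the 2 groups alone, 988 without both replicate 3 libraries, and 322 to 826 leaving out 1. The 167 genes past 1.5-fold were 252 with a pseudocount of 0.1 and 291 without both replicate 3 libraries. For the change from 2 to 8 wk (572) the counts were 340 with no filter, 1405 with array weights, 186 with the 1.5-fold limit, 1325 without both replicate 3 libraries, and 238 to 1138 leaving out 1. For 6 to 8 wk (0) 1 gene was called with array weights and 1 without both replicate 3 libraries. Of 122 called named genes 65 kept the call in every setting but the 1.5-fold limit. The only direction that reversed was that of Slc4a1, not called in either setting, at -0.0832 without both replicate 3 libraries; the cause was not tested.

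Replicate numbers did not pair the libraries: the same-number correlations of deviations were -0.162, 0.046, -0.199, -0.105 and 0.145, and no NCAC library correlated best with its own number. A replicate block, which drops CAC replicates 6 and 7, gave 682 genes at 8 wk (518 higher, 164 lower) and 102 for the change from 2 to 8 wk. Depth behind the TPM is unknown, so that no counting error can be given for low genes.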

Other observations

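Outside the gene lists, called genes that differed by at least 1.5-fold held several with known roles, picked here after their values were seen and not by the naming rule. The extracellular glutathione peroxidase Gpx3 averaged 37.6 ± 15.5 TPM in CAC and 14.1 ± 4.28 in NCAC (SD, n = 7 and 5; limma 1.253 ± 0.28, adjusted p = 0.00184). The proline dehydrogenase Prodh averaged 42.3 ± 12.8 and 19 ± 7.6 (1.10 ± 0.203, adjusted p = 0.000236), and the urea cycle enzyme Asl 18.5 ± 4.46 and 9.03 ± 1.85 (0.93 ± 0.139, adjusted p = 9.13e-06). The groups overlapped for these 3 genes. Gamt, which makes creatine, was lower, at 10.2 ± 1.68 and 15.9 ± 2.3 TPM with no overlap (-0.59 ± 0.099, adjusted p = 6.82e-05). Among lipid carriers, the apolipoprotein Apod averaged 525.7 ± 154 and 260.4 ± 63.6 (0.98 ± 0.157, adjusted p = 3.19e-05), with mock at 269 ± 31.1, and Apoc1 25.4 ± 7.03 and 12.8 ± 3.11 (0.91 ± 0.19, adjusted p = 0.000896).

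Surface and signalling genes of vessels and immune cells were also among them. The sialomucin Podxl of endothelium averaged 34.3 ± 9.28 TPM in CAC and 18.7 ± 1.68 in NCAC (0.80 ± 0.12, adjusted p = 9.13e-06), and transglutaminase Tgm2 19.1 ± 2.5 and 9.86 ± 1.35 (0.89 ± 0.131, adjusted p = 8.27e-06). The endotoxin co-receptor Cd14 averaged 5.8 ± 2.13 and 2.83 ± 0.394 (0.78 ± 0.154, adjusted p = 0.000502) and the death receptor Fas 4.57 ± 1.02 and 2.17 ± 0.424 (0.81 ± 0.167, adjusted p = 0.000895). The repressor Bcl6 averaged 94.5 ± 10.1 and 50.8 ± 4.64 (0.88 ± 0.174, adjusted p = 0.000526). In these 5 genes every CAC library was above every NCAC library. Lower in CAC were the receptor S1pr2 for sphingosine phosphate (-0.71 ± 0.141, adjusted p = 0.000553) and the transcription factor Etv4 (-0.70 ± 0.162, adjusted p = 0.00263), both with overlap.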
